A study of Arabidopsis thaliana with 8 samples.

Results

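The 68 genes described here had, after quantile normalization, a lower transcript intensity in each of 4 red-light samples of Arabidopsis thaliana than in any of 4 white-light samples. They were chosen by that difference, so that their red and white values below are a description of the choice and no test of it. The rule took probes paired with exactly 1 gene (692 of 3439 on the array) whose mean deposited intensity over the 8 samples lay above 0.15 and below 2, the modest part of the scale, which left 463 probes. After quantile normalization the highest red value had to lie under the lowest white value, and mean white had to be at least 1.5 times mean red. Of the 463 probes, 76 (16.4%) met both conditions, and 8 of these were left out by name, namely IAA31, SIRB, SECE1, GLDH, GH9B11, GH9B12, Z-ISO and LPA19. The 68 genes are therefore 68 of the 692 genes with a probe of their own.

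Red samples were wild-type plants of the Landsberg ecotype kept for 48 h under red light of 20 µE, and white samples were plants of the same ecotype that received white light of 20 µE for 48 h. Total RNA was measured in 4 samples per light, with 1 column of intensities per sample, called an array here. The labels name no organ, age or growth medium, and do not say whether samples came from separate plants, and p-values here therefore cover the spread among the samples at hand, which could be technical, and nothing wider. In RNA from bulk samples, fewer cells of a type and less RNA per cell cannot be told apart.

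Plants sense red light mainly through phytochromes, whereas white light also holds the blue wavelengths read by cryptochromes and phototropins. Both lights drive photosynthesis through chlorophyll. Most proteins of the chloroplast, including many subunits of its ribosome and its photosystems, are encoded in the nucleus, made in the cytosol and imported. Transcripts of such genes are among those that respond to light in Arabidopsis seedlings.

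The arrays differed in total. Summed over all 3439 probes, intensity was 2669, 2549, 3172 and 3196 in red samples 1 to 4, against 1823, 1691, 2352 and 2373 in white samples 1 to 4. Within a light, samples 1 and 2 resembled each other, as did samples 3 and 4 (Spearman correlations across probes of 0.910 to 0.947), more than samples of different sets did (0.777 to 0.825). Values are therefore also given within samples 1 and 2 and within samples 3 and 4. Of 12 marker genes of green tissue 1 had a probe of its own (LHB1B2), and of the markers of root, senescence and seed tissue (14 in all) none had, so that the tissue could not be checked.

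The summed deposited intensity of the 68 genes was 16.8, 16.5, 21.4 and 21.0 in red samples 1 to 4, against 35.7, 34.7, 49.1 and 49.0 in white samples 1 to 4. All 4 red sums were below all 4 white sums. The totals over all probes were higher in every red sample, and included 2 to 4 probes at the ceiling of the scale on each red array and none on the white ones. The median over all probes did not follow the totals, at 0.203, 0.202, 0.257 and 0.256 in red samples 1 to 4, against 0.237, 0.238, 0.288 and 0.289 in white samples 1 to 4. It was lower in red within each set of samples, and 573 to 604 probes were listed at 0 on a red array, against 393 to 468 on a white one. After normalization the median member had an intensity of 0.277, 0.254, 0.240 and 0.239 in red samples 1 to 4, against 0.590, 0.594, 0.507 and 0.485 in white samples 1 to 4.

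**Figure D1:**
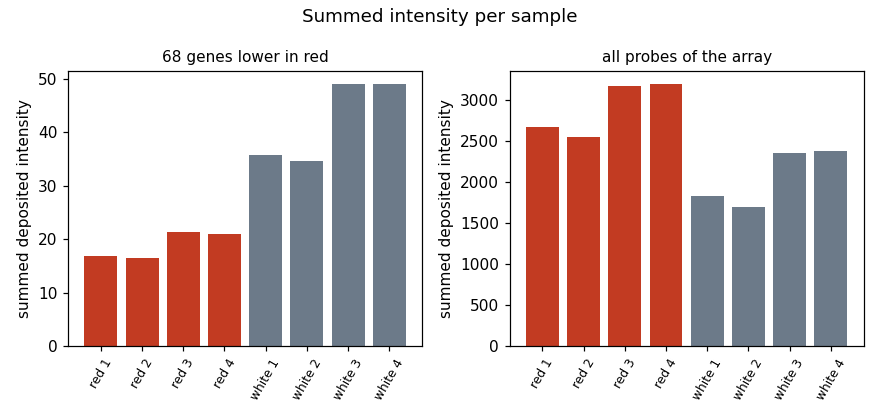
Summed deposited intensity in each sample, for the 68 genes (left) and for all probes of the array (right), with bars from 0 and red samples left of white samples. The sums of the 68 genes run from 16.5 to 21.4 in red and from 34.7 to 49.1 in white, while the sums of all probes are higher in red and their medians are not.

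The floor is a normalized intensity of 0.0716, and 10 genes had a red array there. It is the highest of the arrays' 5th percentiles of positive values, a choice and not a measured limit of detection. Values under it were treated as equal in the main fit. In the 58 genes with no array at the floor, the ratio of mean white to mean red, on normalized values, ran from 1.51 to 4.92. Over all 68 its median was 2.10, and it was 2 or more in 39 genes. As a log2 difference (red minus white, from limma on floored log2 values) these 58 ran from -2.28 to -0.59. The median over all 68 was -1.08, against a median of -0.10 over the 463 probes of the level window and of -0.03 over all 3032 tested probes. limma called 49 of the 68 lower in red at an adjusted p under 0.05, beside 10.9% of all tested probes called lower and 11.0% called higher. Red and white did not overlap, with red lower, in 15.3% of all tested probes and in 16.8% of the level window. The rule used this contrast, so nothing is read from these counts about the members. The same holds for the counts of calls in groups of the 68 below.

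**Figure D2:**
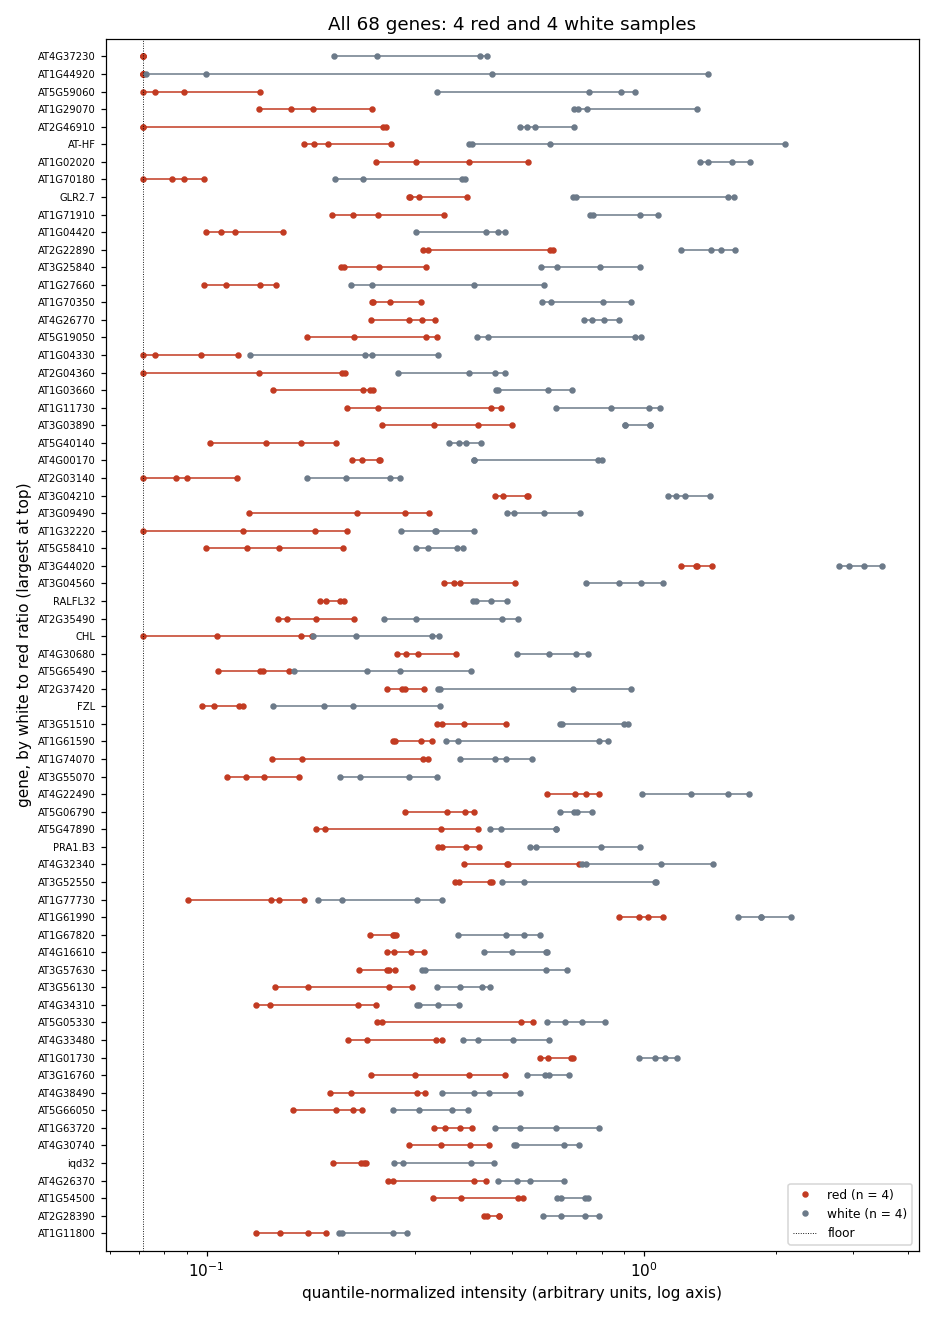
Range of normalized intensity (log axis) of each of the 68 genes over the 4 red and the 4 white arrays, sorted by the ratio of mean white to mean red, with the floor of 0.0716 as a line. The red and white ranges of a gene do not overlap, as the rule requires, and 10 genes have a red array at the floor.

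Thylakoid and photosystem-related proteins made up 5 of the genes, with log2 differences of -2.10 to -0.68. AT4G37230 encodes a protein related to PsbO, the extrinsic subunit that stabilizes the manganese cluster of photosystem II. Its deposited intensity was listed at 0 in red samples 1 and 2, and was 0.0166 in red sample 3 and 0.00143 in red sample 4, against 0.359, 0.372, 0.286 and 0.235 in white samples 1 to 4. All 4 red values were at the floor of the scale and all 4 white values were far above it. Its normalized level was at least 4.28-fold lower in red, and at least 2.08-fold with the floor at the 20th percentile. It was the 1 gene of 3 PsbO-related genes with a probe of its own. Probes shared by several genes were not counted here or for the families below, and genes called measured are those with a probe of their own.

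AT3G44020, a thylakoid lumen protein, averaged 1.45 ± 0.177 in red and 2.47 ± 0.687 in white (SD, n = 4 each), a log2 difference of -1.23. CHL, the chloroplast lipocalin, which in Arabidopsis protects thylakoid lipids, averaged 0.1004 ± 0.0652 in red and 0.269 ± 0.0423 in white (SD, n = 4 each). CHL was not called. The gap of CHL between lowest white and highest red was 1.001-fold, the smallest among the 68, and its log2 difference came to -1.94 within samples 1 and 2 but -0.21 within samples 3 and 4. FZL, a dynamin-type GTPase of the thylakoid membrane that shapes grana, averaged 0.0826 ± 0.0134 in red and 0.246 ± 0.0978 in white (SD, n = 4 each). The call of FZL was kept in 5 of the 19 other settings, the fewest among the called genes. Among the settings without it were the floor at the 20th percentile, the offset and the random block. AT1G54500, a rubredoxin-fold protein, lay near the fold limit with 0.425 ± 0.0396 in red and 0.638 ± 0.102 in white (SD, n = 4 each) and was not called.

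Fibrillins are lipid-binding proteins of plastoglobules and thylakoids. AT2G46910, a fibrillin, was listed at 0 in red samples 1 and 2, and had 0.266 in red sample 3 and 0.270 in red sample 4, against 0.453, 0.520, 0.616 and 0.608 in white samples 1 to 4. Red samples 1 and 2 were far below red samples 3 and 4, and all of them were below every white sample. Its log2 difference came to -1.05 within samples 3 and 4, and to -3.12 or lower within samples 1 and 2, where red was at the floor. AT2G35490, a second fibrillin, had 0.145 ± 0.0215 in red and 0.363 ± 0.0535 in white (SD, n = 4 each), a log2 difference of -1.11.

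Of 14 fibrillin genes listed, 5 had a probe of their own, and the 2 called lower were these 2 members. The other three did not pass the test. AT1G51110 had 0.232, 0.185, 0.115 and 0.0875 in red samples 1 to 4, against 0.0963, 0.0906, 0.158 and 0.176 in white samples 1 to 4 (log2 difference 0.85, limma adjusted p = 0.123), and its groups overlapped. The difference of AT1G51110 was 0.21 on the deposited scale, 1.76 in samples 1 and 2 alone (limma adjusted p = 0.0101) and -0.07 in samples 3 and 4 alone (limma adjusted p = 0.783). AT5G19940 averaged 0.0989 ± 0.0588 in red and 0.217 ± 0.0209 in white (SD, n = 4 each), a log2 difference of -0.74 (limma adjusted p = 0.180) that passed the test on the deposited scale (-1.03, adjusted p = 0.0326). AT5G09820 had 0.117, 0.0888, 0 and 0.0189 in red samples 1 to 4, against 0.0963, 0.0732, 0.0840 and 0.103 in white samples 1 to 4. Its log2 difference was 0.44 (limma adjusted p = 0.281) and turned to -0.02 on the deposited scale.

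Translation was represented by AT1G29070 and AT4G30680. AT1G29070 encodes protein L34 of the large subunit of the plastid ribosome. It had 0.0991, 0.196, 0.141 and 0.160 in red samples 1 to 4, against 0.528, 0.548, 1.46 and 0.7996 in white samples 1 to 4. White sample 3 stood above the other white samples, and the lowest white value was still far above the highest red one. Its log2 difference came to -2.01 within samples 1 and 2 and -2.54 within samples 3 and 4. AT4G30680, a protein with the MA3 domain of eIF4G, the scaffold of the initiation complex in the cytosol, averaged 0.293 ± 0.0265 in red and 0.632 ± 0.218 in white (SD, n = 4 each).

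Of 33 plastid ribosomal protein genes listed, 6 had a probe of their own. Besides AT1G29070, AT5G65220 (protein L29) was called lower, with 1.12, 1.16, 1.49 and 1.26 in red samples 1 to 4, against 1.502, 1.438, 4.552 and 4.445 in white samples 1 to 4. Its red and white ranges overlapped on the deposited scale but not after normalization, and its mean of 2.12 put it above the level window. The log2 difference was -1.63 ± 0.36 (SE; limma adjusted p = 0.0143, and 0.107 on the deposited scale and 0.0601 after median centring). AT3G54210 (protein L17) was called higher, at 0.505 ± 0.124 in red and 0.318 ± 0.114 in white (SD, n = 4 each), with a log2 difference of 0.77 ± 0.24 (SE; limma adjusted p = 0.0481). As deposited it did not pass (adjusted p = 0.117), nor did it with an offset in place of the floor (0.0541), or without any 1 of the red samples or white samples 1, 2 or 3 (adjusted p of 0.0702 to 0.107).

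AT3G13120 (protein S10) and AT4G01310 (protein L5) did not pass, with log2 differences of -0.41 (limma adjusted p = 0.623) and -0.26 (limma adjusted p = 0.606). AT1G64510 (protein S6) was listed at 0 on all 8 arrays. The measured plastid ribosomal proteins were thus 2 lower, 1 higher, 2 that did not pass and 1 without a measured value. With samples 1 and 2, and samples 3 and 4, of a light as a random block none of the 3 calls was kept (limma adjusted p of 0.0880 for AT1G29070, 0.0761 for AT5G65220 and 0.415 for AT3G54210).

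**Figure D3:**
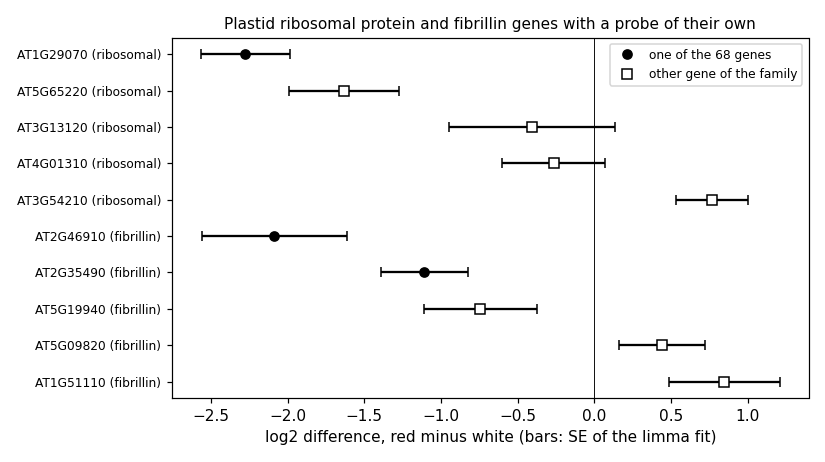
Log2 difference (red minus white) of each plastid ribosomal protein and fibrillin gene that had a probe of its own and was tested, with bars for the SE of the limma fit, filled points for members of the 68 and open squares for other genes. The differences run from -2.28 (AT1G29070) to 0.85 (AT1G51110, which was not called). The positive value of AT5G09820 turns to -0.02 on the deposited scale.

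Lipid metabolism held 4 genes, with log2 differences of -1.70 to -0.92. AT2G22890 is related to FAD4, the desaturase of plastid phosphatidylglycerol, and was the 1 measured gene of 3 in that family. It had 0.273, 0.263, 0.736 and 0.725 in red samples 1 to 4, against 0.956, 0.827, 1.59 and 1.70 in white samples 1 to 4. Samples 3 and 4 were higher than samples 1 and 2 in both lights, and red was below white throughout. AT4G26770, a CDP-diacylglycerol synthase, which makes the precursor of phosphatidylglycerol and phosphatidylinositol, averaged 0.288 ± 0.0821 in red and 0.725 ± 0.135 in white (SD, n = 4 each). AT4G22490, of the lipid-transfer type, averaged 0.734 ± 0.0756 in red and 1.26 ± 0.546 in white (SD, n = 4 each), and its groups overlapped as deposited. AT3G56130, of the BADC family, inhibitors of plastid acetyl-CoA carboxylase, averaged 0.185 ± 0.0573 in red and 0.386 ± 0.0279 in white (SD, n = 4 each).

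One gene of amino acid synthesis was among the 68. AT-HF (AT4G26900) encodes the imidazole glycerol phosphate synthase of histidine synthesis, and was the 1 measured of 11 histidine pathway genes listed. It had 0.221, 0.143, 0.183 and 0.151 in red samples 1 to 4, against 1.41, 0.472, 0.456 and 0.450 in white samples 1 to 4. White sample 1 was far above the other white samples, which lay close together and still above every red one. Its log2 difference came to -2.39 within samples 1 and 2 and -1.18 within samples 3 and 4.

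Oxidoreductases numbered 5, with log2 differences of -2.09 to -1.03. AT1G02020, of the nitroreductase family, had 0.256, 0.1999, 0.640 and 0.461 in red samples 1 to 4, against 1.20, 1.11, 1.495 and 1.52 in white samples 1 to 4. Red samples 1 and 2 were lower than red samples 3 and 4, and the groups were well apart. AT1G04420, an aldo-keto reductase, had 0.0668, 0.0857, 0.0837 and 0.128 in red samples 1 to 4, against 0.390, 0.397, 0.345 and 0.497 in white samples 1 to 4. The lowest white value was more than 2 times the highest red one. AT3G03890, an FMN-binding protein, averaged 0.368 ± 0.142 in red and 0.880 ± 0.236 in white (SD, n = 4 each). AT1G32220, of the NAD(P)-binding fold, averaged 0.113 ± 0.0688 in red and 0.350 ± 0.0880 in white (SD, n = 4 each). AT5G47890, the B8 subunit of mitochondrial complex I, averaged 0.248 ± 0.0928 in red and 0.506 ± 0.0229 in white (SD, n = 4 each) and was not called.

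Channels and membrane traffic made up 4 genes, all called lower, beside 49 of all 68 and 10.9% of all tested probes. GLR2.7, one of the glutamate receptor-like cation channels, was the 1 measured of 18 listed. It had 0.335, 0.244, 0.310 and 0.334 in red samples 1 to 4, against 1.07, 1.13, 0.784 and 0.792 in white samples 1 to 4. The red samples lay close together. The lowest white value was more than 2 times the highest of them as deposited, and 1.75 times it after normalization. AT4G00170, of the VAP family, which tethers the endoplasmic reticulum to other membranes, averaged 0.212 ± 0.0118 in red and 0.522 ± 0.0690 in white (SD, n = 4 each). PRA1.B3, a prenylated Rab acceptor of vesicle traffic, averaged 0.365 ± 0.0238 in red and 0.642 ± 0.0472 in white (SD, n = 4 each). The other measured PRA1 gene of 16 listed, PRA1.B6, averaged 1.12 ± 0.410 in red and 1.003 ± 0.479 in white (SD, n = 4 each) and did not pass the test, with a log2 difference of -0.10 (limma adjusted p = 0.910) that was 0.22 on the deposited scale.

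AT2G28390 encodes MON1, the SAND-family protein of Rab7 activation at the vacuole, and is widely used as a reference gene for quantitative PCR. It averaged 0.458 ± 0.102 in red and 0.668 ± 0.217 in white (SD, n = 4 each), and its log2 difference was -0.60. Its groups overlapped on the deposited scale, and its call was kept in 7 of the 19 other settings. Among the settings without it were the deposited scale, median centring, the offset and the random block.

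Signal peptides and defence were represented by RALFL32 and AT3G04210. RALFL32, of the RALF-like family of secreted peptides perceived by receptor kinases, averaged 0.171 ± 0.0208 in red and 0.426 ± 0.0446 in white (SD, n = 4 each). It was the 1 measured of 34 RALF-like genes listed. AT3G04210, of the TIR-NBS class of intracellular immune receptors, averaged 0.518 ± 0.138 in red and 1.13 ± 0.387 in white (SD, n = 4 each). Its log2 difference was nearly equal in samples 1 and 2 (-1.31) and in samples 3 and 4 (-1.29).

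Protein folding and ubiquitin transfer had 4 genes, with log2 differences of -1.41 to -0.97. All 4 were called lower, beside 49 of all 68 and 10.9% of all tested probes. AT5G40140, a U-box protein with ARM repeats of the kind that acts as ubiquitin ligase, averaged 0.120 ± 0.0360 in red and 0.393 ± 0.0789 in white (SD, n = 4 each). AT5G58410, related to listerin, the ligase that tags stalled nascent chains on ribosomes, averaged 0.121 ± 0.0582 in red and 0.349 ± 0.0580 in white (SD, n = 4 each). AT1G74070, a cyclophilin-type prolyl isomerase, averaged 0.201 ± 0.0769 in red and 0.472 ± 0.134 in white (SD, n = 4 each), and its log2 difference came to -0.43 within samples 1 and 2 and -1.72 within samples 3 and 4. The call of AT1G74070 was kept in 9 of the 19 other settings. The fourth gene, AT3G55070, with LisH and CRA domains, averaged 0.105 ± 0.0217 in red and 0.272 ± 0.0241 in white (SD, n = 4 each).

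Protein kinases and phosphatases comprised 3 genes. AT3G25840, a kinase of the splicing-related PRP4 type, averaged 0.235 ± 0.0877 in red and 0.736 ± 0.313 in white (SD, n = 4 each), and its log2 difference came to -1.57 within samples 1 and 2 and -1.66 within samples 3 and 4. AT1G61590, a kinase, averaged 0.276 ± 0.00981 in red and 0.499 ± 0.107 in white (SD, n = 4 each) and was not called. AT1G67820, a phosphatase of the PP2C class, averaged 0.244 ± 0.0309 in red and 0.496 ± 0.148 in white (SD, n = 4 each).

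Transcription-related proteins numbered 5. AT1G27660, a bHLH factor, averaged 0.0947 ± 0.0265 in red and 0.339 ± 0.0916 in white (SD, n = 4 each), with log2 differences of -2.23 in samples 1 and 2 and -0.71 in samples 3 and 4. AT1G61990, of the mTERF family of organelle transcription factors, averaged 1.096 ± 0.279 in red and 1.604 ± 0.408 in white (SD, n = 4 each), and its groups overlapped on the deposited scale. AT4G16610, a C2H2 zinc finger protein, averaged 0.267 ± 0.0167 in red and 0.539 ± 0.178 in white (SD, n = 4 each). AT5G05330, with an HMG box, and AT4G26370, with the NusB domain of transcript antitermination factors in bacteria, were not called. AT5G05330 averaged 0.364 ± 0.121 in red and 0.662 ± 0.157 in white (SD, n = 4 each). AT4G26370 averaged 0.319 ± 0.0481 in red and 0.516 ± 0.0617 in white (SD, n = 4 each).

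Hydrolases and glycosyltransferases added 6 genes. The hydrolase and nuclease folds were AT5G19050, AT2G03140 and AT4G34310, of the alpha/beta hydrolase fold, and AT1G11800, of the endonuclease and exonuclease family. AT1G11800 was not called. AT5G19050 averaged 0.231 ± 0.0580 in red and 0.585 ± 0.116 in white (SD, n = 4 each), and AT2G03140 averaged 0.0607 ± 0.0271 in red and 0.253 ± 0.0704 in white (SD, n = 4 each). The glycosyltransferases were AT1G11730, of the galactosyltransferase family, and AT3G57630, of the exostosin family, known in Arabidopsis for arabinosylation of extensins. AT1G11730 averaged 0.362 ± 0.202 in red and 0.863 ± 0.362 in white (SD, n = 4 each). AT3G57630 averaged 0.240 ± 0.0431 in red and 0.424 ± 0.0796 in white (SD, n = 4 each) and was not called.

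The microtubule-related genes, AT2G37420 and iqd32, were both not called. AT2G37420, a kinesin, averaged 0.269 ± 0.0244 in red and 0.610 ± 0.368 in white (SD, n = 4 each). The white mean came from samples 3 and 4, as the log2 difference came to -0.18 within samples 1 and 2 and -1.57 within samples 3 and 4. The protein of iqd32 has an IQ domain, which binds calmodulin. iqd32 averaged 0.203 ± 0.0351 in red and 0.359 ± 0.109 in white (SD, n = 4 each). IQD22, the other measured gene of 32 of this family listed, had a log2 difference of -0.72 (limma adjusted p = 0.161) that passed the test on the deposited scale (-1.10, adjusted p = 0.0311).

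Among proteins with interaction domains, AT1G70180 carries a SAM domain, a protein-binding fold. It had 0.04997, 0.0564, 0.0262 and 0.0738 in red samples 1 to 4, against 0.334, 0.342, 0.270 and 0.235 in white samples 1 to 4. All 4 red values were low and close to the floor or at it, and no white value was near them. AT4G32340 and AT3G16760, both with tetratricopeptide repeats, were nearer the fold limit. AT4G32340 averaged 0.524 ± 0.131 in red and 0.852 ± 0.0968 in white (SD, n = 4 each) and was not called. AT3G16760 averaged 0.365 ± 0.171 in red and 0.591 ± 0.158 in white (SD, n = 4 each), and its groups overlapped as deposited.

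No role is given here for 20 genes, 12 of which were called, beside 49 of all 68 and 10.9% of all tested probes called lower. AT5G59060 had 0.0411, 0.102, 0.0642 and 0.0410 in red samples 1 to 4, against 0.636, 0.671, 0.380 and 0.844 in white samples 1 to 4. Each white value was more than 3 times the highest red value as deposited. After normalization the lowest white value was 2.54 times the highest red one. Its log2 difference was -2.92 with 1 red array at the floor, and -2.20 with the floor at the 20th percentile. AT1G71910 had 0.174, 0.161, 0.393 and 0.256 in red samples 1 to 4, against 0.563, 0.561, 1.20 and 1.09 in white samples 1 to 4. Its log2 difference came to -1.89 within samples 1 and 2 and -1.81 within samples 3 and 4, with samples 3 and 4 higher in both lights.

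AT1G44920 had 0.00995, 0.0111, 0.0291 and 0.0347 in red samples 1 to 4, against 0.0951, 0.120, 0.509 and 1.52 in white samples 1 to 4. All 4 red values were at the floor of 0.0716, and white sample 1, at 0.0727 after normalization, was just above it. The white values spread over more than 10-fold. Its normalized level was at least 3.63-fold lower in red, and at least 2.32-fold with the floor at the 20th percentile. The log2 difference, a bound as red was at the floor, was -0.25 within samples 1 and 2 but -3.47 within samples 3 and 4, and limma did not call it. AT1G70350 averaged 0.244 ± 0.0201 in red and 0.722 ± 0.295 in white (SD, n = 4 each). AT1G04330 averaged 0.0588 ± 0.0283 in red and 0.259 ± 0.0997 in white (SD, n = 4 each). The other 15 were AT2G04360, AT1G03660, AT3G09490, AT3G04560, AT5G65490, AT3G51510, AT5G06790, AT3G52550, AT1G77730, AT4G33480, AT1G01730, AT4G38490, AT5G66050, AT1G63720 and AT4G30740. Their log2 differences ran from -1.48 (AT2G04360) to -0.68 (AT1G63720).

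**Figure D4:**
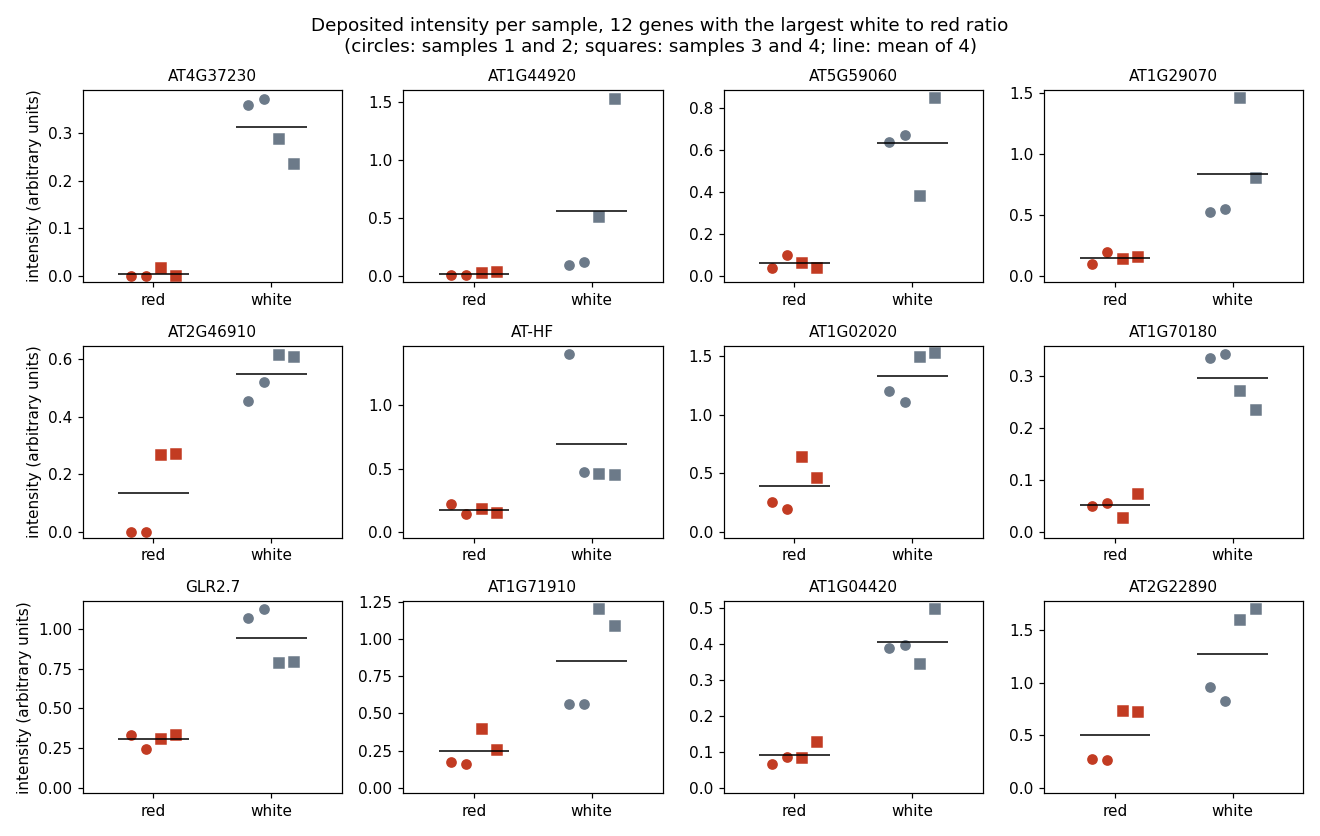
Deposited intensity of the 12 genes with the highest ratio of mean white to mean red, with 1 point per red sample (left) and per white sample (right), circles for samples 1 and 2, squares for samples 3 and 4 and a line at each mean of 4. In all 12 panels every red point lies below every white point, and AT1G44920, AT1G29070 and AT-HF each have 1 white sample far above the other three.

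The 68 genes differed in how evenly the 2 sets of samples carried the difference. In 48 genes white was at least 1.5 times red both in samples 1 and 2 and in samples 3 and 4, in 7 only in samples 1 and 2, and in 13 only in samples 3 and 4. The median log2 difference was -1.17 in either set. In 15 genes the 2 sets differed by more than 1 on the log2 scale. In 10 of these the difference was larger in samples 1 and 2, namely AT2G46910, AT-HF, AT1G02020, GLR2.7, AT1G27660, AT2G04360, CHL, AT1G77730, AT3G57630 and AT4G34310. In 5 it was larger in samples 3 and 4, namely AT1G44920, AT2G37420, AT1G74070, AT3G52550 and AT5G05330. AT2G46910, AT2G04360, CHL and AT1G44920 had a red array at the floor, where the size of a difference depends on the floor. These sets share no sample, but both entered the rule.

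When samples 1 and 2, and samples 3 and 4, of a light were treated as a random block, limma called 7 of the 68. These were AT4G37230, AT1G02020, AT1G71910, AT2G22890, AT1G70350, AT4G26770 and AT3G04210. The main fit, which treats the 8 samples as independent, called 49. The correlation within blocks was 0.752. The other 42 called genes lost the call there. Over all probes, the random block left 114 calls (43 lower and 71 higher) of 666.

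**Figure D5:**
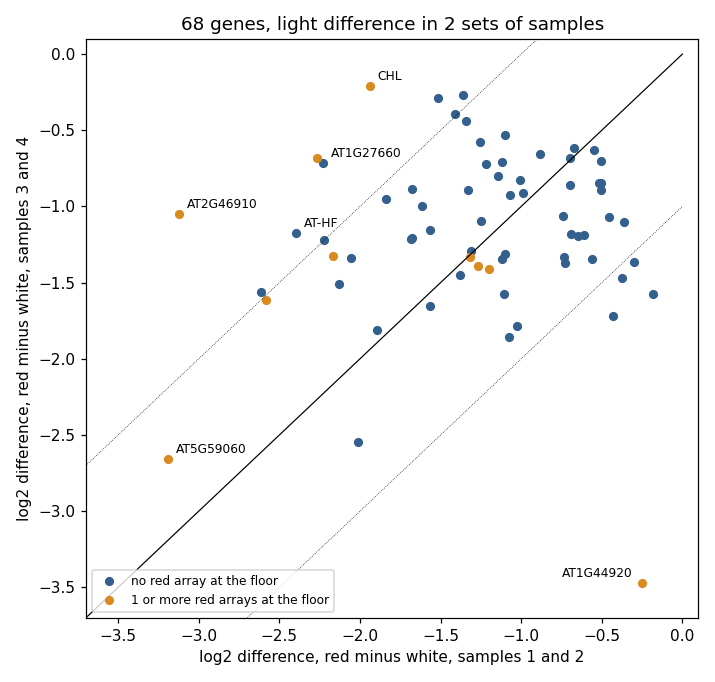
Log2 difference (red minus white) of the 68 genes in samples 1 and 2 (horizontal) and in samples 3 and 4 (vertical), with a line of equality and dotted lines 1 log2 unit from it. Orange points are the genes with a red array at the floor, whose differences depend on it, and AT1G44920 (-0.25 and -3.47) and AT2G46910 (-3.12 and -1.05) lie far on opposite sides of the line.

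Within a light, the members varied by a median SD of 0.255 (red) and 0.285 (white) on the log2 scale, against 0.381 (red) and 0.442 (white) in the other 395 probes of the level window. The rule favours probes with a small spread, so this is a property of the choice. The gap between lowest white and highest red had a median of 1.33-fold, was under 1.1-fold in 13 genes and at least 2-fold in 9. On the deposited scale, with no normalization, red and white did not overlap in 59 of the 68 genes. These were chosen for non-overlap after normalization of the same samples, so nothing is read from this count. The share over all probes was not counted as deposited. After normalization it was 15.3% of all tested probes and 16.8% of the level window, with red lower. The 9 of the 68 that overlapped as deposited were AT1G11730, AT4G22490, AT3G52550, AT1G61990, AT5G05330, AT1G01730, AT3G16760, AT1G63720 and AT2G28390. Of the 49 called genes, 8 were not called by limma on the deposited scale, namely AT1G11730, AT3G44020, AT4G22490, AT5G06790, AT1G61990, AT1G01730, AT3G16760 and AT2G28390.

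Just inside the fold limit lay AT1G11800 (ratio of mean white to mean red 1.51), AT2G28390 (1.53), AT1G54500 (1.57) and AT4G26370 (1.59). Just outside it were AT5G53920 (1.45) and AT5G14910 (1.30), the 2 probes that met the rest of the rule. A further 62 probes of the level window passed the fold but overlapped between lights, AT1G11820 by the least, its lowest white value being 0.992 times its highest red value. Below the level window 10 non-overlapping genes passed the fold, the nearest being AT3G53580 with a mean of 0.135. Above the window 4 did, AT5G65220 (2.12), AT4G39690 (3.95), AT3G26580 (3.96) and AT1G51350 (4.76). The 8 genes left out by name had ratios between 1.71 (IAA31) and 3.45 (GH9B12).

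Outside the 68, the genes whose pattern over the 8 samples was most like the median member were AT4G39690 (Pearson r = 0.983), AT3G56250 (0.969), AT1G01500 (0.930) and AT3G53580 (0.900). The members themselves had r between 0.533 and 0.990 with that profile, with a median of 0.880. These correlations are over 8 samples that share the split by light, and are given as a description. They use floored values, and AT3G56250, AT1G01500 and AT3G53580 had 3, 2 and 2 red arrays at the floor.

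In the position and length of the genes, which the rule did not use, the members were spread over all chromosomes. They were 22 of 123 genes of the level window on chromosome 1 (17.9%), 8 of 90 on chromosome 2 (8.89%), 13 of 79 on chromosome 3 (16.5%), 14 of 82 on chromosome 4 (17.1%) and 10 of 87 on chromosome 5 (11.5%), with 1 member not placed. The median gene length was 2115 bp for the 67 members in the RefSeq table and 2030 bp for the level window. Only genes with a probe of their own, 692 in all, could be seen here, so nothing is read from the spacing. Of the 67 placed members, no 2 were adjacent genes. The nearest were AT4G30680 and AT4G30740, and AT5G05330 and PRA1.B3 (AT5G05380), each 6 genes apart.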

How the data were processed

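Total RNA of 8 samples (4 red, 4 white) was measured on an array of 3439 probes. The deposited values are intensity on a linear scale in arbitrary units, 1 column per sample. How the authors corrected the background and scaled the arrays, and which genome build they used, is not given in the sources used here. The number of arrays limits the precision. Gene names came from the platform annotation, which can be old, and 690 of the 692 one-gene probes matched the RefSeq table of TAIR10.1, used for names, order and length.

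Columns were quantile-normalized with limma 3.58.1 in R 4.3.3. For tests, values under 0.0716, the highest of the 8 arrays' 5th percentiles of positive normalized values, were raised to it, and the 407 probes at this floor on all arrays were left out. Log2 values of 3032 probes were fitted with lmFit and eBayes, two-sided, with Benjamini-Hochberg adjustment, and the fit was tested on simulated data. Where all arrays of a light were at the floor, the fold is written as "at least". Quoted intensities are as deposited, and ratios and log2 differences come from normalized values. Values of different probes are not levels relative to each other.

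Named with values were the 12 members with the highest ratio of mean white to mean red, members with a gene symbol, up to 5 per role group, those nearest the fold limit, and the 4 probes most like the median member. Roles and families come from general knowledge, as the table holds no descriptions, and no candidate was recognised as a pentatricopeptide repeat gene. Members and lists were chosen with earlier results of these data known. Same-numbered red and white samples deviated together from their group means (correlations across probes of 0.239 to 0.320, against -0.206 to 0.107 for different numbers), so the replicate number was also fitted as a block. The data, not the labels, tie these samples. Python 3.11.15 with pandas 2.3.3 and matplotlib 3.10.9 drew the plots.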

Additional observations from a re-analysis of the deposited data

Results flagged for a closer look

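Within 4 genes, 1 sample stood apart from the other samples of its light on normalized log2 intensity by a Dixon test. Chance passes that test in about 1 of 20 groups of independent values. The samples fell into sets that resembled each other, and the genes were chosen on these values, so that rate need not hold here. In all, 126 groups of 4 were examined. AT1G29070 had 0.40 in white sample 3, against -0.53 to -0.43 in the other white samples. AT1G03660 had -2.82 in red sample 2, against -2.13 to -2.06 in the other red samples. iqd32 had -2.36 in red sample 2, against -2.15 to -2.11 in the other red samples. AT1G67820 had -2.08 in red sample 4, against -1.91 to -1.89 in the other red samples. The 10 groups with a value at the floor were not examined.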

How the results depend on the processing

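All 68 log2 differences kept their sign in every setting run, and 7 genes were called in each of them, with a further 14 called in all but the random block. The rule required red below white on normalized values, so in settings on those values no sign could turn. Sign-keeping there is a property of the choice. The rule gave 87 genes on deposited values and 79 after median scaling (59 of the 68 shared each time), 39 with a fold of 2, 43 with a level of 0.3 to 1, 76 with no gene left out by name, and 67 to 75 with 1 sample left out. Genes of the 68 called lower were 49, against 52 as deposited, 52 after median centring, 45 with an offset in place of the floor, 7 with the random block, 49 in samples 1 and 2 alone, 57 in samples 3 and 4 alone, and 34 (without white sample 1) to 43 (without red sample 2) with 1 sample left out. With the replicate block 54 were called, 8 gained and 3 lost (AT1G74070, adjusted p = 0.0644; AT4G34310, 0.0602; AT5G66050, 0.0667). Over all probes there were 666 calls (332 lower, 334 higher), 761 as deposited (467 lower, 294 higher), 802 after median centring (462 lower, 340 higher), 788 with the replicate block, 114 with the random block, 1268 in samples 1 and 2, 1176 in samples 3 and 4, and 453 to 613 with 1 sample left out. The median over all probes was -0.03 (log2), -0.14 as deposited and -0.13 after median centring. The cause of these changes was not tested. Values under the floor were treated as equal in the main fit, and noise near it was not measured, which touches the 10 genes with a red array there.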
